A study of Mus musculus with 103 samples.

Results

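Colony-stimulating factors are secreted proteins that keep myeloid cells alive, make them divide and set their state, and microglia, the resident macrophages of the brain, depend on the receptor Csf1r for their survival. The hippocampal levels of 6 genes of this system were followed, the ligands Csf1 and Il34 and the receptor chains Csf1r, Csf2ra, Csf2rb and Csf3r. They were taken by name from the 48526 gene rows of the table, as microglial growth signals and receptors, and all 6 passed the filter on low values (0.5 TPM or more as the mean of some group). TPM, a transcript abundance, is a level scaled for transcript length and for the total of the library. Csf2rb passed only through transgenic groups, since its mean was below 0.5 TPM in wild-type mice of every age.

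Values come from 89 male mice of 5 lines, 1 hippocampal library per mouse, at 2, 4, 8 and 18 months of age. The 15 HO-TASTPM mice (4, 4, 4 and 3 in order of age) were homozygous for both transgenes of an amyloid line, of which 1 encodes human APP with the Swedish mutation, and the 16 HET-TASTPM mice (4 at each age) were hemizygous for both. The 13 TAS10 mice (4, 2, 3 and 4) were hemizygous for that APP transgene alone, driven by the Thy1 promoter, and the 14 tau mice (4, 4, 4 and 2) were hemizygous for human MAPT with the P301L mutation, driven by the Camk2a promoter. Both promoters act mainly in neurons. The 31 wild-type C57BL/6J mice (8, 8, 8 and 7) carried no transgene, and no group received an agent. Nothing in the sources says which mice shared a litter, so p-values measure the spread between these animals only.

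Csf1 and Il34 are alternative ligands of Csf1r. Csf1 is made by glia and some neurons, and Il34 in the adult brain is made largely by neurons of the forebrain. Csf2ra is the ligand-specific chain of the receptor for GM-CSF (the product of Csf2) and Csf2rb the chain that carries its signal, shared with the receptors for interleukins 3 and 5. Csf3r is the receptor for G-CSF (the product of Csf3) and is best known from neutrophils and their precursors.

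The start regions of 3 of the 6 members, Csf1, Csf2ra and Csf3r, were found in the RefSeq promoter table (GRCm38.p6), and Csf1r, Il34 and Csf2rb had no entry there. These regions are shown because only these 3 members had an entry. Each runs from 250 bases before the annotated start to 50 bases after it, 5′ to 3′ on the strand of the gene. Capitals mark GAGGAA, the purine-rich core found in sites of the myeloid factor PU.1, and GGGCGG, the GC box, each searched on both strands, so that a match on the other strand reads TTCCTC or CCGCCC. No matches of different motifs overlap. The Csf1 region is chr3:107760420-107760719 on the minus strand, that of Csf2ra is chr19:61228369-61228668 on the minus strand and that of Csf3r is chr4:126024409-126024708 on the plus strand.
Csf1: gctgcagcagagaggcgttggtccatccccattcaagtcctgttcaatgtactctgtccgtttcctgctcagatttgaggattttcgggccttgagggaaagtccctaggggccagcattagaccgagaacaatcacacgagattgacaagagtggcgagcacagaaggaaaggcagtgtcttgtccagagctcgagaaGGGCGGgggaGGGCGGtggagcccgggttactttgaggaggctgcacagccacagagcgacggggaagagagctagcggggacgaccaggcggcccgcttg
Csf2ra: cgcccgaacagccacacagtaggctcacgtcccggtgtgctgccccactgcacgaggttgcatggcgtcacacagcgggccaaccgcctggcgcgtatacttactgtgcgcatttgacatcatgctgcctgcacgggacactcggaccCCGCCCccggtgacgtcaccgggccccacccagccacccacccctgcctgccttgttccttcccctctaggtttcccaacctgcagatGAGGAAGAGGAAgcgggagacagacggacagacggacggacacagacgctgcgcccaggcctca
Csf3r: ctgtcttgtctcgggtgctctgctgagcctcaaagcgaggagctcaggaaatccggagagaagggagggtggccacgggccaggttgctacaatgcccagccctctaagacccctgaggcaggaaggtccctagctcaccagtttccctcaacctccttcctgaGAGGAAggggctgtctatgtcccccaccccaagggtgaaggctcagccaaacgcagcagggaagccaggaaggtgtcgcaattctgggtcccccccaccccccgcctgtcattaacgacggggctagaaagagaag
The Csf1 region held GGGCGG at 2 places and no GAGGAA. The Csf2ra region held GAGGAA at 2 adjoining places and GGGCGG at 1, and the Csf3r region held GAGGAA at 1 place and no GGGCGG. Of the 32851 start regions in the table, 28.3% held GAGGAA and 35.7% held GGGCGG, so a match is a description of these letters and not of a bound factor.

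In wild-type mice the system was dominated by Il34, with a median over 31 mice of 59.9 TPM, against 23.4 TPM for Csf1r, 20.9 TPM for Csf2ra, 9.78 TPM for Csf1, 4.70 TPM for Csf3r and 0.336 TPM for Csf2rb. Csf2rb stayed under 1 TPM in all 31 wild-type mice and in 77 of the 89 mice, so its values rest on few reads. The library depth is unknown, because only TPM were used, and the counting error of such low values cannot be given. The ligands of the other receptors were near 0. Csf2 reached at most 1.66 TPM and was listed at 0 in 40 of 89 mice, and Csf3 reached at most 0.302 TPM and was listed at 0 in 44.

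In GENCODE M21 (GRCm38) Csf1r lies at chr18:61100598-61132149 on the plus strand and Il34 at chr8:110741829-110805924 on the minus strand, and the whole genes of Csf1, Csf2ra and Csf3r span chr3:107741048-107760469, chr19:61223957-61228429 and chr4:126024550-126044440. A TPM value sums all transcripts of a gene, so no exon or isoform is singled out here.

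**Figure D1:**
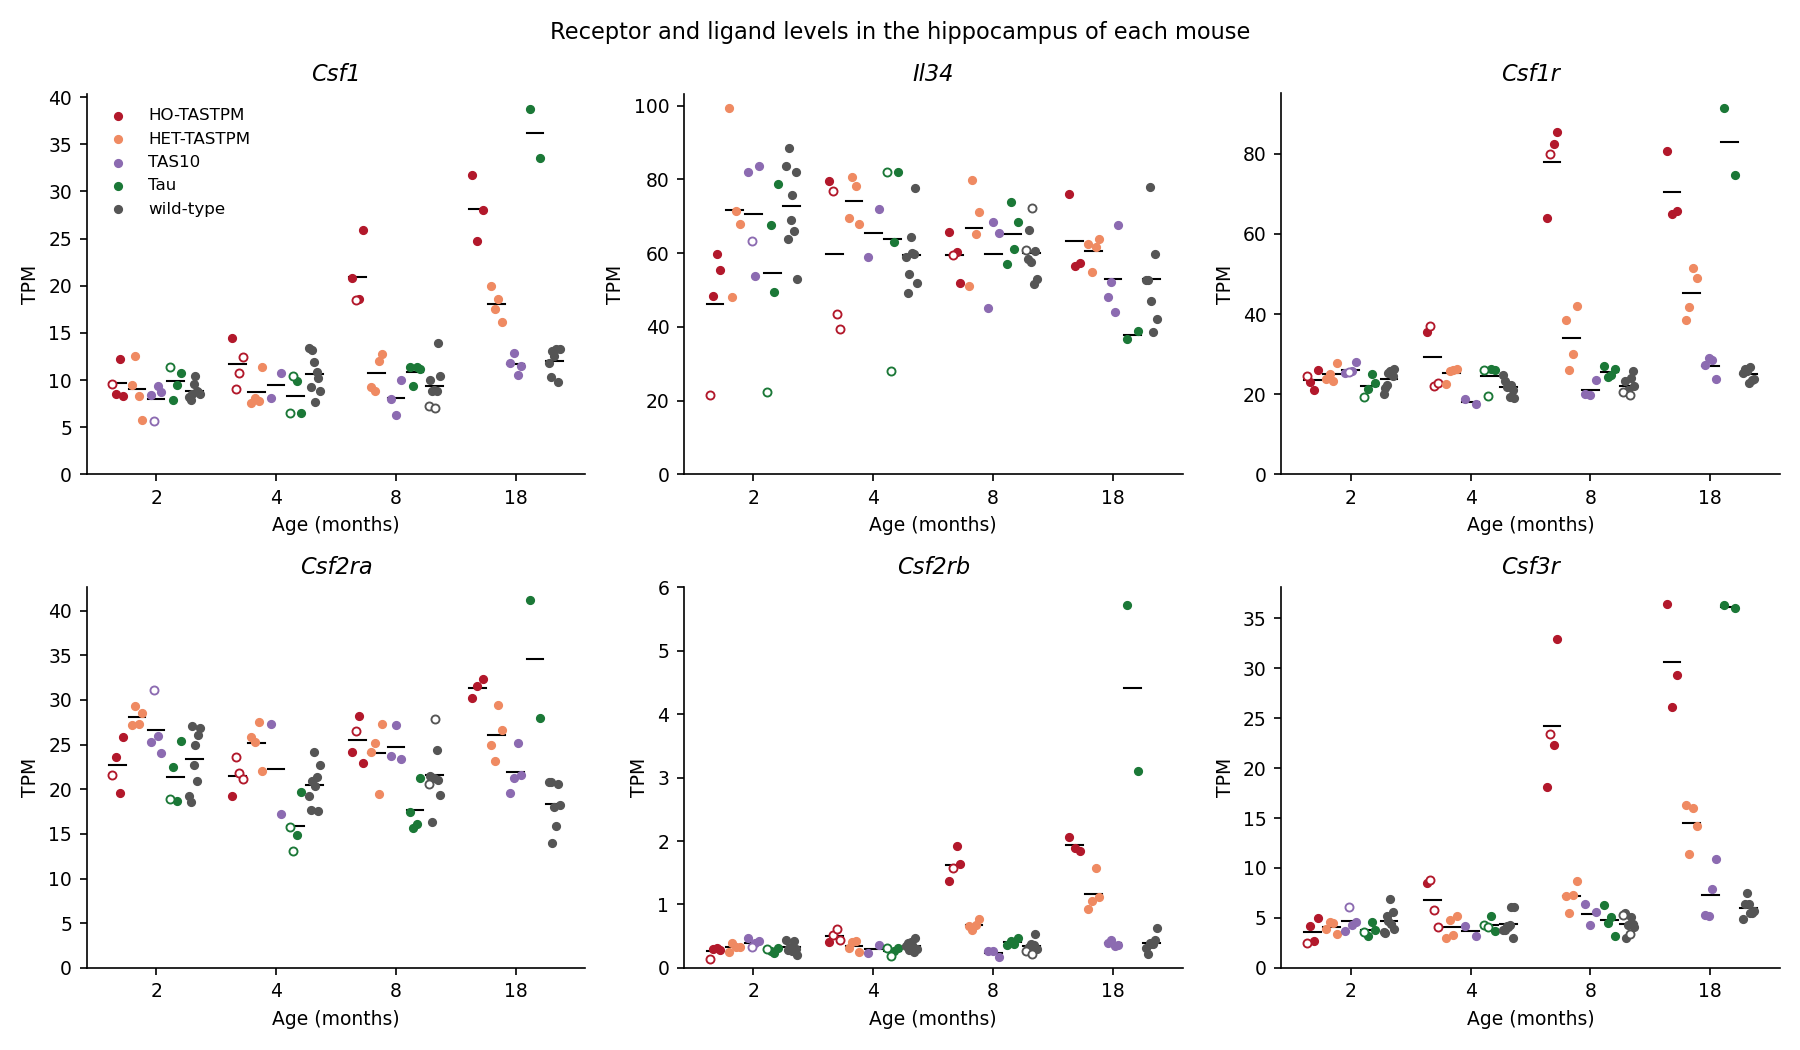
Level (TPM) of each member in each of 89 mice, by age in months, 1 panel per gene with its own axis from 0. Points are mice, hollow points are the libraries set apart by genes of neighbouring brain regions, and bars are group means. Csf1, Csf1r, Csf2rb and Csf3r lie above all wild-type mice in HO-TASTPM mice of 8 and 18 months and in tau mice of 18 months, while Il34 overlaps between neighbouring groups throughout.

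Some libraries stood apart. In 11 of the 89, genes of striatum, thalamus and cortex were high relative to genes of hippocampal excitatory neurons, with scores of 2.33 or more on the log2 scale against at most 1.31 in the others and a limit of 1.5. They were from HO-TASTPM mice of 2 months (mouse 966), 4 months (810, 811 and 812) and 8 months (452), TAS10 mouse 2425 of 2 months, tau mice of 2 months (1809) and 4 months (1816 and 1817) and wild-type mice of 8 months (1462 and 2342). In 3 libraries the gene that reports the transgene lay inside the wild-type range, unlike in the other libraries of their lines. They are the libraries labelled HO-TASTPM mouse 452 and TAS10 mouse 2443, for App, and tau mouse 1809, for Mapt. Mice 452 and 1809 are also set-apart libraries. Whether the label or the tissue of a library lies behind these values was not tested. The member calls in HO-TASTPM mice of 2, 4 and 8 months and tau mice of 4 months against wild-type mice are given with and without them. Member calls in other limma comparisons that include them stayed without them, and most of their values are given with them only. The ligand balance was not recomputed without them. Marker sums, list medians and values of other genes include them unless stated.

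Differences between groups are on the log2(TPM + 0.5) scale, from 1 limma fit of all groups, and a gene was called where its Benjamini-Hochberg adjusted p, over the 26268 genes tested, was under 0.05. Standard errors (SE) come from that fit. TPM are relative levels in bulk tissue, so more cells of a type and more RNA per cell cannot be told apart.

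Csf1r is the receptor tyrosine kinase on microglia. At 8 months it stood at 64.1, 80.0, 82.4 and 85.5 TPM in HO-TASTPM mice and at 38.5, 26.0, 29.9 and 42.0 TPM in HET-TASTPM mice, against a lowest, median and highest value of 19.8, 21.6 and 25.9 TPM in 8 wild-type mice. Every amyloid mouse of both dosages was above every wild-type mouse. At 18 months it stood at 80.6, 64.9 and 65.8 TPM in HO-TASTPM mice, 38.6, 41.8, 51.4 and 49.0 TPM in HET-TASTPM mice and 91.4 and 74.6 TPM in tau mice, against 22.8, 25.4 and 26.9 TPM (lowest, median and highest) in 7 wild-type mice. Again no transgenic mouse of these 3 lines overlapped with wild-type.

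In HO-TASTPM mice Csf1r rose by 1.79 on the log2 scale at 8 months (SE 0.10, limma adjusted p = 7.17e-27) and by 1.48 at 18 months (SE 0.11, limma adjusted p = 4.90e-19). In HET-TASTPM mice it rose by 0.59 (limma adjusted p = 2.67e-05) and 0.84 (limma adjusted p = 1.27e-09) at these ages. In tau mice of 18 months it rose by 1.71 (SE 0.13, limma adjusted p = 2.09e-19), and at 8 months, at 25.6 ± 1.31 TPM in tau (SD, n = 4) and 22.2 ± 2.09 TPM in wild-type mice (SD, n = 8), it did not pass the test (limma adjusted p = 0.319). Csf1r overlaps Hmgxb3 on the opposite strand, which averaged 9.11 TPM in HO-TASTPM and 9.28 TPM in wild-type mice of 18 months.

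The ligand Csf1 differed by less. At 8 months it was at 20.8, 18.5, 18.6 and 25.9 TPM in HO-TASTPM mice, against 7.03, 8.90 and 13.9 TPM (lowest, median and highest) in wild-type mice. All 4 HO-TASTPM mice lay above the wild-type range, while HET-TASTPM mice, at 9.21, 8.79, 12.0 and 12.7 TPM, lay inside it. At 18 months Csf1 was at 31.7, 24.8 and 28.0 TPM in HO-TASTPM mice, 20.01, 17.5, 18.6 and 16.2 TPM in HET-TASTPM mice and 38.7 and 33.5 TPM in tau mice, against 9.78, 12.6 and 13.3 TPM (lowest, median and highest) in wild-type mice. By then the 3 lines were all clear of wild-type.

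Csf1 rose in HO-TASTPM mice by 1.13 at 8 months (SE 0.15, limma adjusted p = 8.09e-09) and by 1.20 at 18 months (SE 0.17, limma adjusted p = 5.22e-08), and in tau mice of 18 months by 1.56 (SE 0.20, limma adjusted p = 8.08e-10). In HET-TASTPM mice it rose only at 18 months among the ages tested, by 0.57 (SE 0.15, limma adjusted p = 0.0125). That HET-TASTPM call was lost with lane number as a covariate (0.59, limma adjusted p = 0.0991) and without mouse 492 (limma adjusted p = 0.0639). HET-TASTPM libraries of 18 months share no lane number with wild-type libraries of that age.

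All 6 genes of reactive astrocytes rose in HO-TASTPM mice of 8 months (median difference 2.35 against -0.01 over all genes) and of 18 months (2.82 against 0.01). At 18 months 5 rose in HET-TASTPM mice (1.49 against 0.00) and 6 in tau mice (3.80 against -0.03). Their summed level at 8 months was 1188 to 1792 TPM in HO-TASTPM mice, against 97.2 to 287 TPM in wild-type mice. At 18 months it was 2079 to 2411 TPM in HO-TASTPM, 891 to 1605 TPM in HET-TASTPM and 4343 and 5983 TPM in tau mice, against 266 to 382 TPM in wild-type mice. Their part in the Csf1 values was not tested.

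Il34, the more abundant ligand, was called in no line at 4, 8 or 18 months. By 18 months it was at 76.1, 56.6 and 57.2 TPM in HO-TASTPM mice and 36.8 and 38.9 TPM in tau mice, against 38.7, 52.7 and 77.9 TPM (lowest, median and highest) in wild-type mice. The HO-TASTPM mice lay inside the wild-type range, and 1 tau mouse lay just below it. The differences were 0.27 in HO-TASTPM mice (95% interval -0.19 to 0.74, limma adjusted p = 0.598), 0.23 in HET-TASTPM mice (limma adjusted p = 0.648) and -0.45 in tau mice (95% interval -0.99 to 0.09, limma adjusted p = 0.259), so none passed and a change of moderate size in either direction is within the intervals. Of 8 genes of excitatory neurons, 4 were lower and none higher in tau than in wild-type mice of 18 months, with a list median of -0.78 against -0.03 over all genes, and summed levels of 2017 and 2921 TPM in tau mice against 3766 to 4638 TPM in wild-type mice. Their part in the Il34 value was not tested.

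Among the comparisons of a line with wild-type mice of the same age, Il34 was called in 1, HO-TASTPM mice of 2 months, where it fell by 0.73 (SE 0.21, limma adjusted p = 0.0423) and stood at 21.5, 48.3, 59.8 and 55.3 TPM in HO-TASTPM mice, against 52.9, 72.4 and 88.5 TPM (lowest, median and highest) in wild-type mice. The lowest value came from mouse 966, a set-apart library, and without the set-apart libraries the difference was -0.40 (limma adjusted p = 0.190). In that comparison 0.879% of all genes were called lower. Il34 overlaps the antisense genes Gm15894 and Gm15895, which averaged 0.341 and 0.181 TPM in HO-TASTPM mice of 18 months and 0.220 and 0.155 TPM in wild-type mice.

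The balance of both ligands was then compared. Computed in each mouse as log2 Csf1 minus log2 Il34, it was -1.49 ± 0.33 in HO-TASTPM (SD, n = 4) and -2.64 ± 0.39 in wild-type mice of 8 months (SD, n = 8), a difference of 1.15 (p = 0.00404 by a two-sided exact permutation test, and 0.0202 after adjustment over 5 comparisons). By 18 months it was -1.15 ± 0.12 in HO-TASTPM (SD, n = 3) and -2.07 ± 0.42 in wild-type mice (SD, n = 7), a difference of 0.92 (exact permutation p = 0.0167, adjusted p = 0.0417). Tau mice of 18 months had a balance near 0, -0.07 ± 0.20 (SD, n = 2), a difference of 2.00 from wild-type mice, where 2 against 7 mice allow no exact permutation p below 0.0556. In HET-TASTPM mice the difference was 0.05 at 8 months (n = 4 and 8, exact permutation p = 0.853) and 0.35 at 18 months (n = 4 and 7, exact permutation p = 0.158, adjusted p = 0.197). The HO-TASTPM comparison of 8 months includes set-apart libraries and was not repeated without them. They are HO-TASTPM mouse 452 (-1.66) and wild-type mice 1462 (-2.99) and 2342 (-3.27), which had the lowest balances of the wild-type mice of that age.

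**Figure D2:**
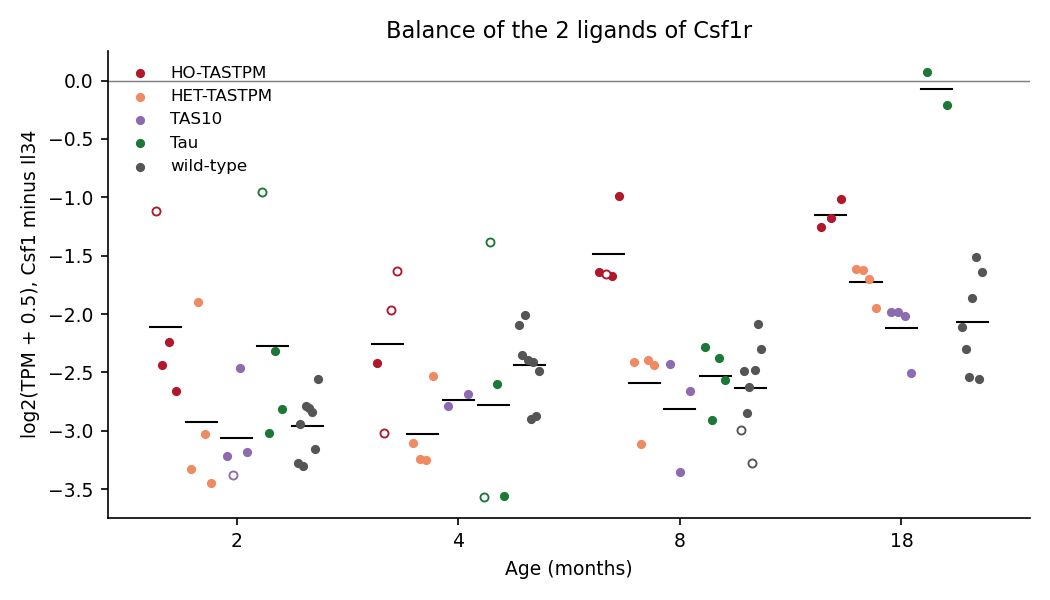
Ligand balance, log2 Csf1 minus log2 Il34 in TPM, in each of 89 mice by age in months, with a bar at each group mean. At 0 both ligands have the same level. Tau mice of 18 months sit near 0 (mean -0.07) and HO-TASTPM mice of that age at -1.15, above wild-type mice at -2.07.

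Csf3r had the largest fold change of the 6 members in HO-TASTPM mice of 8 and 18 months. It was at 18.1, 23.4, 22.4 and 32.96 TPM in HO-TASTPM mice of 8 months, against 2.99, 4.35 and 5.50 TPM (lowest, median and highest) in wild-type mice. At 18 months it was at 36.4, 26.1 and 29.3 TPM in HO-TASTPM mice, 16.3, 11.4, 15.96 and 14.2 TPM in HET-TASTPM mice and 36.3 and 36.0 TPM in tau mice, against 4.92, 5.70 and 7.47 TPM (lowest, median and highest) in wild-type mice. The lines were ordered tau and HO-TASTPM, then HET-TASTPM, then wild-type, with no overlap between HO-TASTPM and HET-TASTPM or between HET-TASTPM and wild-type mice.

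In HO-TASTPM mice Csf3r rose by 2.33 at 8 months (SE 0.18, 5.01-fold, limma adjusted p = 3.22e-18) and by 2.26 at 18 months (SE 0.21, 4.80-fold, limma adjusted p = 4.82e-15). In tau mice of 18 months it rose by 2.51 (SE 0.24, 5.71-fold, limma adjusted p = 1.75e-14), and in HET-TASTPM mice by 1.21 at that age (SE 0.19, limma adjusted p = 2.20e-06). At 8 months the HET-TASTPM mice, at 7.20, 5.50, 7.31 and 8.70 TPM, lay above the wild-type range, the lowest of them only just. The difference was 0.66 (limma adjusted p = 0.0212), and the call was lost in a fit of only these groups (limma adjusted p = 0.0717) and without mouse 460, 476 or 478 (limma adjusted p up to 0.123).

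Genes of neutrophils, the cells best known for Csf3r, were set beside it. Of 10 neutrophil genes 6 were tested, and limma called none of them in HO-TASTPM or HET-TASTPM mice of 8 or 18 months (0 also at unadjusted p under 0.05). Their summed level was 1.42 to 3.71 TPM in HO-TASTPM mice of 8 months, against 2.72 to 6.71 TPM in wild-type mice. At 18 months it was 2.66 to 5.51 TPM in HO-TASTPM and 3.97 to 6.21 TPM in HET-TASTPM mice, against 3.03 to 10.1 TPM in wild-type mice. Ly6g, Ngp, Mmp8 and Elane, which did not pass the filter (highest group mean 0.21 TPM, for Ngp), were listed at 0 in all 3 HO-TASTPM mice of 18 months. Zeros at this level also occurred in wild-type groups. Ly6g was at 0 in all wild-type mice of 2, 4 and 8 months, Elane in those of 2 months and Mmp8 in those of 4 months. In tau mice of 18 months 2 of the 6, S100a9 (1.94) and S100a8 (1.83), rose, and the sums were 8.95 and 17.5 TPM. Their part in the Csf3r value of the tau mice was not tested.

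The GM-CSF receptor chains behaved differently from each other. Csf2rb, the signalling chain, was at 1.36, 1.57, 1.92 and 1.64 TPM in HO-TASTPM mice of 8 months, against 0.224, 0.327 and 0.537 TPM (lowest, median and highest) in wild-type mice. At 18 months it was at 2.06, 1.89 and 1.84 TPM in HO-TASTPM mice, 0.931, 1.05, 1.57 and 1.11 TPM in HET-TASTPM mice and 5.73 and 3.10 TPM in tau mice, against 0.219, 0.375 and 0.624 TPM (lowest, median and highest) in wild-type mice. None of the groups overlapped with wild-type, and the tau mice stood above all others.

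Csf2rb rose by 1.34 (limma adjusted p = 2.98e-19) and 1.46 (limma adjusted p = 2.80e-18) in HO-TASTPM mice of 8 and 18 months, and by 0.49 (limma adjusted p = 0.00109) and 0.90 (limma adjusted p = 2.30e-10) in HET-TASTPM mice. In tau mice of 18 months it rose by 2.42 (n = 2, SE 0.13 from the spread shared over all groups, limma adjusted p = 2.92e-27). Over the alternatives run this tau difference ranged from 1.92 to 3.17 (limma adjusted p up to 0.000418). Adding 0.5 TPM shrinks the differences of so low a gene, and with 0.1 TPM added the difference in HET-TASTPM mice of 8 months was 0.84 in place of 0.49. Csf2rb lies at chr15:78325752-78353847 on the plus strand, beside its near-identical copy Csf2rb2, a chain of the mouse interleukin 3 receptor, at chr15:78282507-78305721 on the minus strand, and how reads were split between the 2 copies is uncertain. Csf2rb2 was at 2.17 ± 0.84 TPM in HO-TASTPM and 1.04 ± 0.43 TPM in wild-type mice of 8 months (SD, n = 4 and 8) and rose there by 0.79 (limma adjusted p = 0.00498). In tau mice of 18 months it rose by 1.20 (limma adjusted p = 0.000339), and in HO-TASTPM mice of that age its difference was 0.56 (limma adjusted p = 0.135).

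Csf2ra, the ligand-specific chain, was nearly as abundant as Csf1r in wild-type mice. At 8 months it was at 24.1, 26.5, 28.2 and 23.0 TPM in HO-TASTPM mice, against 16.4, 21.1 and 27.9 TPM (lowest, median and highest) in wild-type mice, and the groups overlapped (difference 0.25, limma adjusted p = 0.215). At 18 months it was at 30.2, 31.5 and 32.3 TPM in HO-TASTPM mice, 24.97, 23.2, 29.5 and 26.6 TPM in HET-TASTPM mice and 41.2 and 28.0 TPM in tau mice, against 14.03, 18.3 and 20.9 TPM (lowest, median and highest) in wild-type mice. All 9 transgenic mice were then above all wild-type mice. Csf2ra rose by 0.77 in HO-TASTPM (SE 0.13, limma adjusted p = 6.71e-06), by 0.50 in HET-TASTPM (SE 0.12, limma adjusted p = 0.00402) and by 0.89 in tau mice (SE 0.15, limma adjusted p = 3.80e-06). In HET-TASTPM mice it averaged 26.1 TPM at 18 months and 28.1 TPM at 2 months, and in wild-type mice 18.3 and 23.3 TPM at these ages, and the HET-TASTPM difference was not called as larger at 18 than at 2 months (interaction 0.23, limma adjusted p = 0.603).

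Against wild-type mice of the same age, Csf2ra was called once before 18 months, in tau mice of 4 months, where it fell by 0.37 (limma adjusted p = 0.0404) and stood at 15.8, 13.1, 14.9 and 19.7 TPM, against 17.5, 20.6 and 24.2 TPM (lowest, median and highest) in wild-type mice. Tau mice 1816 and 1817, with 15.8 and 13.1 TPM, are set-apart libraries, and without the set-apart libraries the difference was -0.24 (limma adjusted p = 0.703). In that comparison 3.46% of all genes were called lower.

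**Figure D3:**
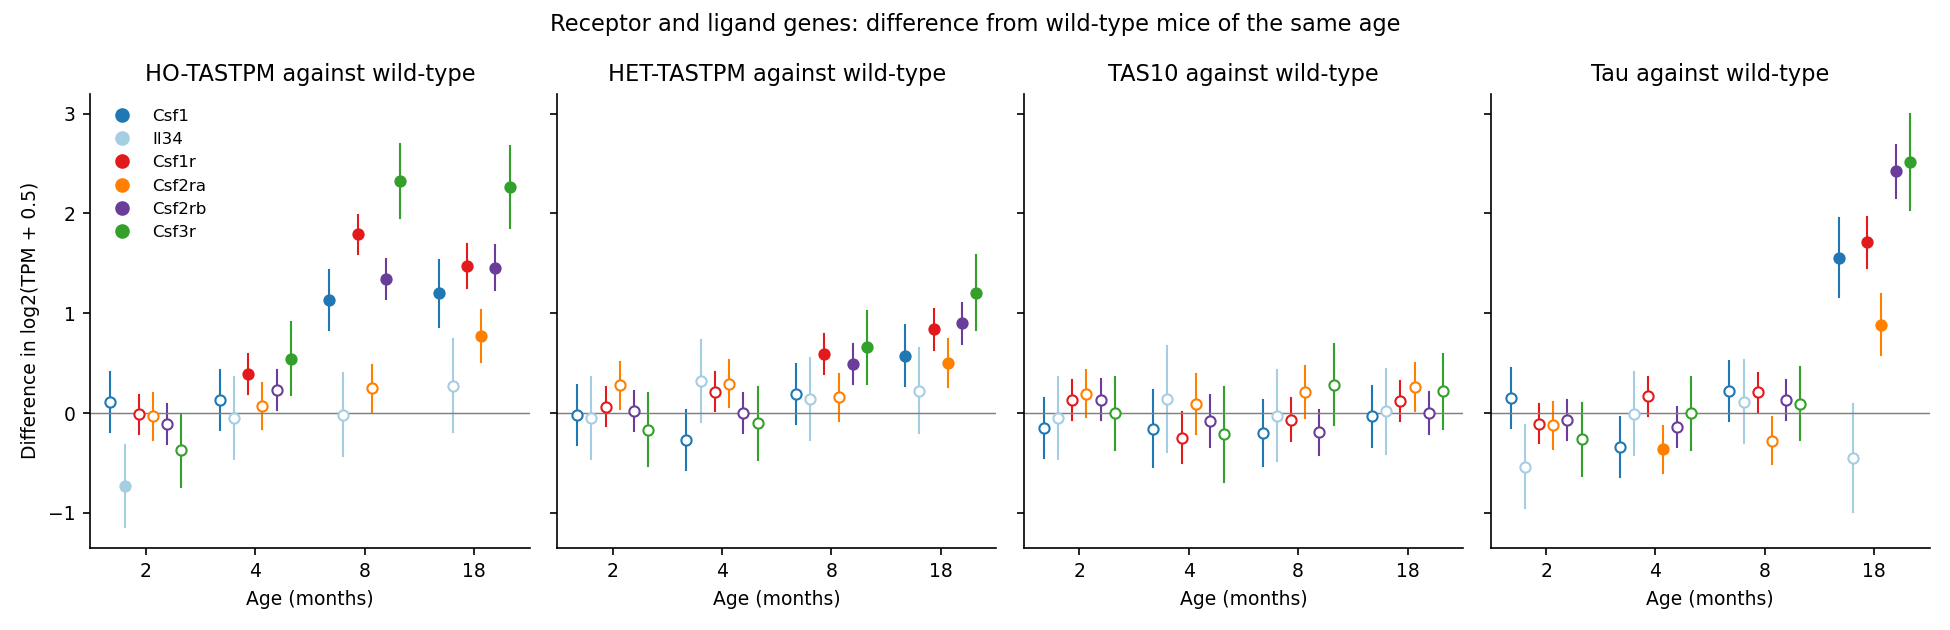
Difference of each member from wild-type mice of the same age on the log2(TPM + 0.5) scale, 1 panel per transgenic line, by age in months. Points are limma estimates with 95% intervals, filled where the adjusted p was under 0.05. Csf3r, Csf1r, Csf2rb and Csf1 separate upward at 8 months in HO-TASTPM mice (2.33, 1.79, 1.34 and 1.13) and at 18 months in tau mice (2.51, 1.71, 2.42 and 1.56), and no TAS10 point is filled.

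Counted over the 6 members, 4 were higher in HO-TASTPM than in wild-type mice of 8 months, where 4.82% of all genes were called higher, and 5 at 18 months, where 6.63% were. In HET-TASTPM mice 3 members were higher at 8 months (4.12% of all genes) and 5 at 18 months (4.67%). In tau mice 5 were higher at 18 months (11.9% of all genes). Il34 was the member not called in each of these 18-month comparisons. Csf2rb is in each of these counts, and it passed the filter on low values only through transgenic groups, where it is high. Its place in these counts, and in those between lines and ages below, is therefore not independent of the filter. Without mouse 452 and the set-apart wild-type libraries, the differences in HO-TASTPM mice of 8 months were 1.07 for Csf1, 1.73 for Csf1r, 1.30 for Csf2rb and 2.33 for Csf3r, all still called. All 3 HO-TASTPM libraries of 18 months carry lane number 3, with 3 of the 7 wild-type libraries. Within that lane number, 3 against 3 mice, Csf1 (1.32), Csf1r (1.46), Csf2rb (1.52) and Csf3r (2.16) stayed called and Csf2ra (0.77, limma adjusted p = 0.0894) did not.

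At 4 months Csf1r and Csf3r were called higher in HO-TASTPM mice, in a comparison where 9.27% of all genes were. Csf1r was at 35.5, 36.9, 22.1 and 22.7 TPM in HO-TASTPM mice, against 18.9, 21.9 and 24.9 TPM (lowest, median and highest) in wild-type mice, and rose by 0.39 (limma adjusted p = 0.00427). Csf3r was at 8.45, 8.80, 5.84 and 4.10 TPM in HO-TASTPM mice, against 2.998, 4.16 and 6.14 TPM in wild-type mice, and rose by 0.54 (limma adjusted p = 0.0378). In both genes 2 HO-TASTPM mice were above the wild-type range and 2 were inside it. Without the 3 set-apart libraries 1 HO-TASTPM mouse, 809, remained, and the limma differences, with its spread assumed like that of the other groups, were 0.70 for Csf1r (limma adjusted p = 0.00623) and 0.89 for Csf3r (limma adjusted p = 0.375). The Csf1r call was also lost without mouse 809 and without mouse 810.

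In HET-TASTPM mice of 2 and 4 months limma called no member (1 and 2 at unadjusted p under 0.05). Of all genes 0.148% and 0.693% were called there in either direction. Csf2ra at 2 months was at 27.2, 29.3, 27.3 and 28.6 TPM in HET-TASTPM mice, all above the wild-type range of 18.6 to 27.1 TPM. The difference was 0.28 (limma adjusted p = 0.688). Among tau mice of 2 and 8 months no member was called either (1 and 2 at unadjusted p under 0.05), where 0.586% and 0.735% of all genes were. In TAS10 mice limma called no member at 2, 4, 8 or 18 months (0, 0, 0 and 1 at unadjusted p under 0.05). Of all genes 0.213%, 0.164%, 0.129% and 0.0571% were called there in either direction. The 1 at 18 months was Csf2ra, with a difference of 0.26 (95% interval 0.02 to 0.50, limma adjusted p = 0.923) and 3 of 4 TAS10 mice above the wild-type range. At 18 months Csf1r averaged 27.1 ± 2.36 TPM in TAS10 (SD, n = 4) and 24.9 ± 1.55 TPM in wild-type mice (SD, n = 7). The difference was 0.12 (95% interval -0.08 to 0.32, limma adjusted p = 1), with 3 of 4 TAS10 mice above the wild-type range. Csf3r was at 5.25, 5.15, 7.94 and 10.9 TPM in TAS10 mice, of which 2 were above the wild-type range.

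The dosage of the transgenes was compared directly. HO-TASTPM mice of 8 months had higher Csf1 (0.94), Csf1r (1.20), Csf2rb (0.85) and Csf3r (1.67) than HET-TASTPM mice, with limma adjusted p from 8.26e-13 to 4.91e-05, in a comparison where 4.67% of all genes were called higher. At 18 months the same 4 members differed by 0.62 (limma adjusted p = 0.0308), 0.64 (limma adjusted p = 0.000588), 0.56 (limma adjusted p = 0.00344) and 1.06 (limma adjusted p = 0.00221), where 3.95% of all genes were called higher. These dosages share no lane number at 8 or at 18 months. The 4 calls of 8 months stayed under all alternatives run, lane number as a covariate among them (limma adjusted p up to 0.0404). At 18 months, with lane number as a covariate, Csf2rb (0.59, limma adjusted p = 0.0381) stayed called. Csf1 (0.77, limma adjusted p = 0.0527), Csf1r (0.37, limma adjusted p = 0.161) and Csf3r (0.71, limma adjusted p = 0.161) did not. The Csf2rb call was lost with quantile normalization (0.30, limma adjusted p = 0.202), and those of Csf2rb (limma adjusted p = 0.0963) and Csf1r (limma adjusted p = 0.0528) in a fit of only these groups. Csf2ra differed by 0.09 at 8 months (95% interval -0.18 to 0.36) and 0.27 at 18 months (limma adjusted p = 0.287). At 2 and 4 months limma called no member between the dosages (2 and 2 at unadjusted p under 0.05), where 1.67% and 1.52% of all genes were called.

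HO-TASTPM and tau mice differed in 5 members at 8 months and in 1 at 18 months. At 8 months 5 members were higher in HO-TASTPM than in tau mice, Csf3r by 2.23, Csf1r by 1.58, Csf2rb by 1.21, Csf1 by 0.91 and Csf2ra by 0.52 (limma adjusted p from 6.08e-20 to 0.0054), where 3.92% of all genes were called higher. At 18 months limma called Csf2rb alone, lower in HO-TASTPM than in tau mice by -0.96 on the log2 scale (limma adjusted p = 2.56e-06), where 3.05% of all genes were called lower. This call rests on tau mouse 1149, with 5.73 TPM, and without it the difference was -0.57 (limma adjusted p = 0.0776).

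In wild-type mice 2 members were called with age. Csf1 was at 12.0 ± 1.43 TPM at 18 months (SD, n = 7) and 8.84 ± 0.79 TPM at 2 months (SD, n = 8) and rose by 0.42 (limma adjusted p = 0.0232), and Csf2ra was at 18.3 ± 2.66 and 23.3 ± 3.43 TPM at these ages and fell by 0.34 (limma adjusted p = 0.0177). Of all genes 3.4% were called higher and 6.16% lower at 18 than at 2 months. Il34 did not pass, at -0.47 (limma adjusted p = 0.0768), nor did Csf1r, at 0.06 (95% interval -0.10 to 0.23). With lane number as a covariate neither Csf1 (0.42, limma adjusted p = 0.101) nor Csf2ra (-0.21, limma adjusted p = 0.318) was called, and Il34 was (-0.68, limma adjusted p = 0.0325).

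The change of each line from wild-type mice was then compared between 18 and 2 months, as an interaction of line and age. In HO-TASTPM mice the interaction was called and positive for all 6 members, where 5.12% of all genes were called in that direction. The interactions were 2.64 for Csf3r, 1.57 for Csf2rb, 1.49 for Csf1r, 1.08 for Csf1, 1.005 for Il34 and 0.80 for Csf2ra. For Il34 this is not a called rise at 18 months, since the gene was called lower at 2 months (-0.73) and not called at 18 months (0.27, limma adjusted p = 0.598). The Il34 interaction (limma adjusted p = 0.0345) rests in part on the low value of mouse 966 at 2 months. Without the set-apart libraries it was 0.68 (limma adjusted p = 0.0415), and it was lost with lane number as a covariate (limma adjusted p = 0.449). In HET-TASTPM mice Csf3r (1.37), Csf2rb (0.88) and Csf1r (0.77) were called, with 1.24% of all genes, and in tau mice Csf3r (2.78), Csf2rb (2.49), Csf1r (1.82), Csf1 (1.41) and Csf2ra (1.01), with 7.1%. In TAS10 mice limma called none (0 at unadjusted p under 0.05), with 0.019% of all genes called in either direction.

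The members were set beside 10 microglial genes, among them Cx3cr1, P2ry12, Siglech and Tmem119. All 10 were higher in HO-TASTPM than in wild-type mice at 8 months, with a median difference of 1.77 against -0.01 over all genes, and all 10 at 18 months, with 1.44 against 0.01. In HET-TASTPM mice 8 were higher at 8 months (median 0.78 against 0.02) and 10 at 18 months (1.002 against 0.00), and in tau mice of 18 months 9 (1.62 against -0.03). Their summed level was 677 to 912 TPM in HO-TASTPM, 532 to 664 TPM in HET-TASTPM and 880 and 1131 TPM in tau mice of 18 months, against 274 to 316 TPM in wild-type mice, with no gene of the list at 0 in all mice of these groups.

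Each of 5 members was also expressed relative to the mean log2 level of these 10 genes in the same mouse, and the line was compared with wild-type mice by exact two-sided permutation tests, adjusted over 25 comparisons. Relative to the microglial genes Csf3r was higher than in wild-type mice, by 0.67 in HO-TASTPM mice of 8 months (4 against 8 mice, exact p = 0.00404, 0.0417 after adjustment). At 18 months the difference was 0.94 (3 against 7 mice, exact p = 0.0167, 0.0417 after adjustment), and HO-TASTPM and wild-type mice overlapped at neither age. In HET-TASTPM mice the Csf3r differences of -0.07 at 8 months (adjusted exact p = 0.65) and 0.27 at 18 months (adjusted exact p = 0.0926) did not pass. Csf2ra lay lower relative to the microglial genes, by -1.41 and -0.55 in HO-TASTPM mice of 8 and 18 months and by -0.57 and -0.43 in HET-TASTPM mice (adjusted exact p = 0.0417 each). Csf1 did so by -0.52 in HO-TASTPM mice of 8 months and by -0.54 and -0.36 in HET-TASTPM mice of 8 and 18 months (adjusted exact p = 0.0417 each). With the median of the microglial list in place of its mean, Csf1 in HET-TASTPM mice of 18 months did not pass (-0.35, adjusted exact p = 0.133).

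Csf1r had the smallest range of differences from the microglial genes over the 5 comparisons, 0.13 and 0.15 in HO-TASTPM mice of 8 and 18 months (adjusted exact p = 0.0758 and 0.093), -0.14 and -0.10 in HET-TASTPM mice and 0.12 in tau mice, none of which passed. Csf2rb was at -0.31 in HO-TASTPM mice of 8 months (adjusted exact p = 0.0417), a value that turned to 0.30 with 0.1 TPM added in place of 0.5, and at 0.13 at 18 months, which became 0.73 with 0.1 TPM added (adjusted exact p = 0.0417). Among tau mice of 18 months the relative level differed from that of wild-type mice by 0.93 for Csf3r, 0.83 for Csf2rb and -0.70 for Csf2ra, where 2 against 7 mice allow no exact p below 0.0556. In all 10 of the 25 passed. Without the set-apart libraries fewer mice of 8 months were compared, and the smallest adjusted exact p reached was 0.0595. No library of 18 months is set apart. The comparisons of that age and their exact p were therefore unchanged, and only the adjustment over 25 comparisons moved them. The differences in HO-TASTPM mice of 8 and 18 months were then 0.68 and 0.94 for Csf3r and -1.37 and -0.55 for Csf2ra.

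**Figure D4:**
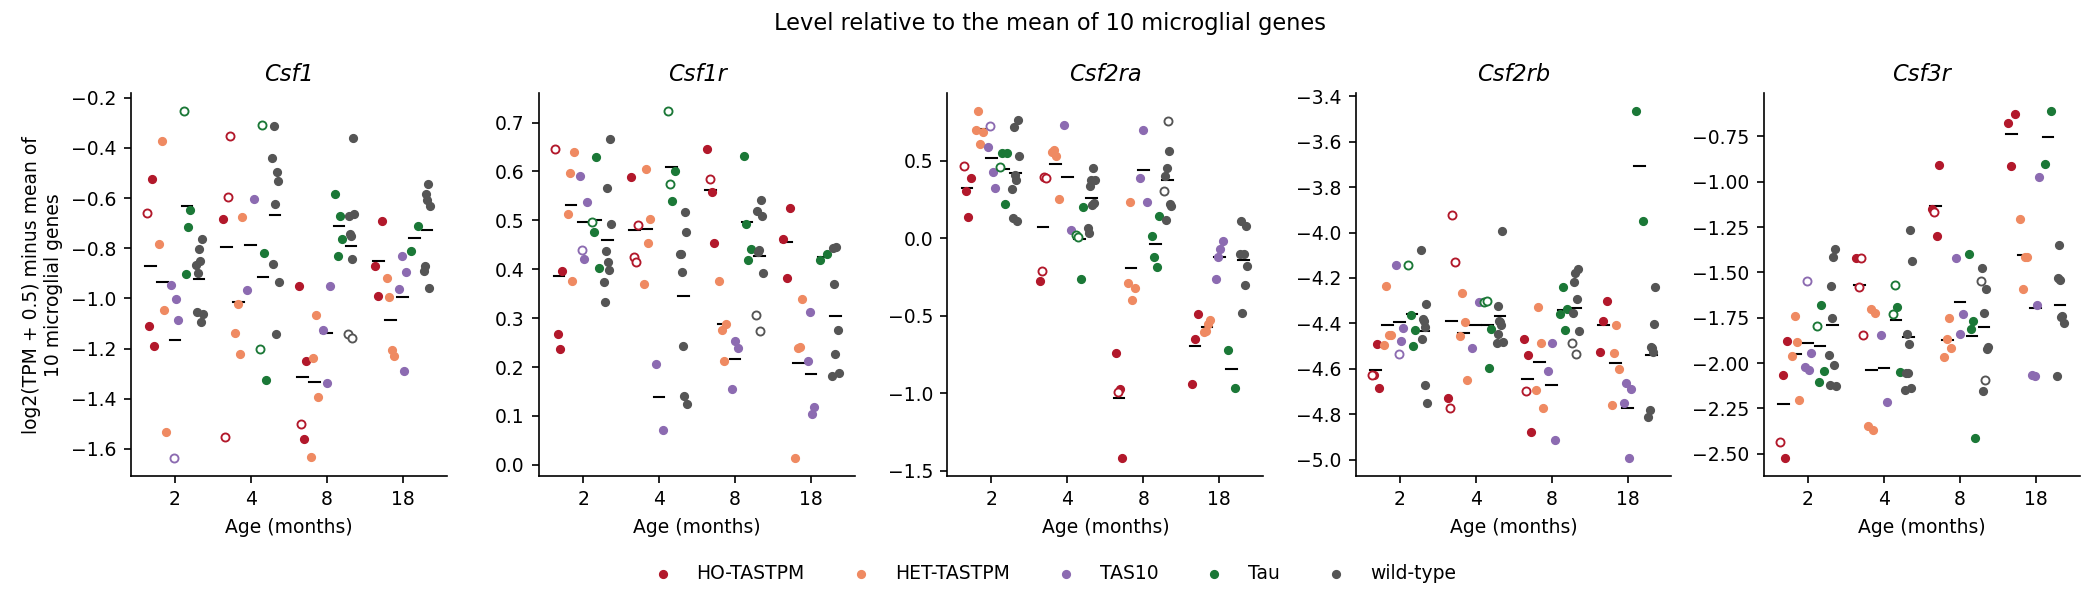
Level of 5 members relative to the mean of 10 microglial genes, in log2 units, in each mouse by age in months, 1 panel per gene, with bars at group means. Csf3r lies above wild-type mice in HO-TASTPM mice of 8 and 18 months (0.67 and 0.94) and Csf2ra below them (-1.41 and -0.55), while Csf1r differs there by 0.13 and 0.15. Hollow points are the set-apart libraries.

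Genes of other cells that carry these receptors were set beside the members. Of 8 genes of monocytes and border macrophages limma called none in HO-TASTPM mice of 8 or 18 months (1 and 5 at unadjusted p under 0.05) and 2 in tau mice of 18 months. Their summed level at 18 months was 7.27 to 11.8 TPM in HO-TASTPM and 9.58 and 11.7 TPM in tau mice, against 4.45 to 9.06 TPM in wild-type mice. Their part in the receptor values was not tested.

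Among related cytokines, Kitl, Flt3l and Il5 passed the filter and Csf2, Csf3 and Il3 did not, and limma called none of the 3 tested in HO-TASTPM, HET-TASTPM, TAS10 or tau mice of 18 months (0 at unadjusted p under 0.05 in each). Of the related receptors 6 of 7 were tested. In HO-TASTPM mice of 8 months 2 of them rose, Csf2rb2 (0.79) and the interleukin 3 receptor chain Il3ra (0.82, a call lost without the set-apart libraries, at 0.76 with limma adjusted p = 0.159), and at 18 months none was called (2 at unadjusted p under 0.05). By 18 months 4 rose in tau mice, Csf2rb2 and Il3ra (1.20 each), Sdc1 (0.86) and Ptprz1 (0.40). At 4 months, where 3 of the 4 HO-TASTPM libraries are set apart, Kitl (1.01, limma adjusted p = 0.00186), Sdc1 (0.72) and Flt3 (0.47) rose and Kit (-0.86) fell in HO-TASTPM mice. None of the 4 was called without the set-apart libraries, with differences of 0.47 for Kitl, 0.83 for Sdc1, 0.02 for Flt3 and 0.22 for Kit from the 1 mouse left. Ptprz1 encodes a phosphatase reported as a receptor for the Il34 protein.

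Of 27 genes that act below these receptors, 14 rose and none fell in HO-TASTPM mice of 18 months, with a median difference of 0.65 against 0.01 over all genes. Tyrobp, an adaptor that signals with Csf1r and other myeloid receptors, was at 682 ± 82.7 TPM in HO-TASTPM (SD, n = 3) and 84.3 ± 7.59 TPM in wild-type mice (SD, n = 7) and rose by 3.01. The exchange factor Vav1 (1.76), the Src-family kinase Lyn (1.20), the phosphatase Ptpn6 (2.34), the transcription factor Stat3 (0.97) and the inhibitor Socs3 (1.95) also rose. In HET-TASTPM mice of 18 months 9 rose, in tau mice 15 rose and 1 fell (the kinase Akt1, -0.27), and in TAS10 mice limma called none (2 at unadjusted p under 0.05).

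Over the 20 groups of line and age, the genes closest in pattern to each member were sought among 18327 genes that averaged 1 TPM or more, by the root mean square difference of centred log2 group means. Csf1r was closest to Pik3cg (0.134), Il10ra (0.136) and Cx3cr1 (0.139), set against its own spread of 0.621. Csf2rb was close to Msn (0.103) and Nckap1l (0.115), and Csf3r to Fcgr3 (0.177), Laptm5 (0.188) and Psmb8 (0.190). Csf1 was closest to Naalad2 (0.131), Trim12c (0.132) and Trim34a (0.146). Csf2ra, with a spread of 0.257, was closest to Amdhd2 (0.133), 1700029J07Rik (0.140) and Psme1 (0.142), and Il34, with 0.234, to Gm9864 (0.128), Tm7sf2 (0.134) and Exd2 (0.140). All groups come from 1 table and share their wild-type animals, so likeness of pattern is a description only.

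By mean level, Csf1 was ordered tau of 18 months (36.1 TPM), HO-TASTPM of 18 months (28.2), HO-TASTPM of 8 months (20.9) and HET-TASTPM of 18 months (18.1), followed without overlap by the other groups, all at 12.0 TPM or less. HO-TASTPM of 18 and of 8 months overlapped, as did HO-TASTPM of 8 and HET-TASTPM of 18 months. For Csf3r tau of 18 months (36.2 TPM), HO-TASTPM of 18 months (30.6) and HO-TASTPM of 8 months (24.2) overlapped with their neighbours and stood clear of HET-TASTPM of 18 months (14.5). For Il34 every neighbour in the order overlapped, from HET-TASTPM of 4 months (74.0 TPM) to tau of 18 months (37.9).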

How the data were processed

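Line, age, mouse number and lane number of 103 hippocampal libraries, each from a separate male mouse, were read from the sample labels, and a lane number can cover more than 1 run. The kit kept strand. The deposited values are TPM, made by the authors, who trimmed reads with Trim Galore, quantified transcripts of GRCm38 with Salmon and summed them to genes with tximport. The versions of these tools and the strand setting of Salmon were not given in the sources used here. Every library summed to 1000000 TPM, so depth and counting error are unknown. 2 symbols on 2 rows each were left out.

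A filter kept 26268 genes whose mean reached 0.5 TPM in some group of the 24. log2(TPM + 0.5) was modelled in R 4.3.3 by limma 3.58.1, using a mean for each group, a mean-variance trend and 79 residual degrees of freedom. Adjustment followed Benjamini and Hochberg within a comparison. One line, of 14 mice, and some single genes are in the fit and not reported here. Values per mouse were compared by exact permutation tests (Python 3.11.15, scipy 1.17.1, numpy 2.4.6, pandas 2.3.3), and figures were drawn with matplotlib 3.10.9. The model was tested on simulated data.

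Named genes are the 6 members, the 3 genes with the smallest p in HO-TASTPM mice of 18 months of a list, the 3 nearest genes of each member, Csf2rb2 and the transgene-reporting genes, and other list genes were named after their values were seen. Members and lists were chosen with earlier results of these data known. The alternatives were 0.1 or 1 TPM added, no filter, a filter at a mean log2 of 1.5, quantile normalization and lane number as a covariate. Others were a fit of the groups compared alone and, for the microglial list, its median. Also left out were the set-apart libraries, the libraries with the transgene-reporting gene inside the wild-type range, or each mouse. Lane number 3 alone was added after the data were seen.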

Additional observations from a re-analysis of the deposited data

Results flagged for a closer look

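In 4 of 96 pairs of a member and a group of 4 to 10 mice, 1 mouse stood far from the others by Dixon's test, where chance gives about 1 in 20. Csf1 was at 11.4 TPM in HET-TASTPM mouse 835 of 4 months, with the nearest other mouse at 8.05 TPM. Csf1r was at 22.6 TPM in HET-TASTPM mouse 832 of 4 months, with the nearest at 25.9 TPM. Csf1r was at 19.7 TPM in tau mouse 1817 of 4 months, with the nearest at 26.0 TPM, and this is 1 of the set-apart libraries. Csf1 was at 9.38 TPM in tau mouse 1463 of 8 months, with the nearest at 11.1 TPM.

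The difference from wild-type mice was not the same at 18 and at 2 months, by the limma interaction of line and age, for 14 pairs of a member and a line. In HO-TASTPM mice the interaction was 1.08 for Csf1, 1.005 for Il34, 1.49 for Csf1r, 0.80 for Csf2ra, 1.57 for Csf2rb and 2.64 for Csf3r on the log2 scale. In HET-TASTPM mice it was 0.77 for Csf1r, 0.88 for Csf2rb and 1.37 for Csf3r. In tau mice it was 1.41 for Csf1, 1.82 for Csf1r, 1.01 for Csf2ra, 2.49 for Csf2rb and 2.78 for Csf3r.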

How the results depend on the processing

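The calls of Csf1, Csf1r, Csf2rb and Csf3r in HO-TASTPM mice of 8 and 18 months and in tau mice of 18 months, and those of Csf1r, Csf2ra, Csf2rb and Csf3r in HET-TASTPM mice of 18 months, stayed under all alternatives run. The counts of members called were less stable where differences were small. HO-TASTPM against wild-type mice of 2 months had 1 call, and 0 with no filter, with lane number as a covariate, in a fit of only these groups and without the set-apart libraries. At 4 months it had 2, and 1 with no filter, quantile normalization, lane number or without the set-apart libraries, and 0 in the fit of only these groups. Tau against wild-type mice of 4 months had 1, and 0 with no filter, in the fit of only these groups and without the set-apart libraries. HO-TASTPM against HET-TASTPM mice of 18 months had 4, and 1 with lane number and 2 in the fit of only these groups, and HO-TASTPM against tau mice of 18 months had 1, and 0 in that fit. Wild-type mice of 18 against 2 months had 2 (Csf1 and Csf2ra), and 1 with lane number (Il34) or in that fit (Csf1). Relative to the microglial list 10 comparisons passed, and 0 without the set-apart libraries. The smallest adjusted p reached with fewer mice of 8 months was 0.0595, and Csf3r in HO-TASTPM mice of 8 months differed by 0.68 in place of 0.67. The comparisons of 18 months kept the same mice, and only their adjusted p moved. Csf2rb in HO-TASTPM mice of 8 months relative to that list reversed to 0.30 with 0.1 TPM added. Csf1 in HET-TASTPM mice of 18 months did not pass with the median of that list (-0.35, adjusted exact p = 0.133). Apart from the adjusted p of 18 months, the cause of these shifts was not tested.

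With each mouse left out in turn, counts ranged from 0 to 1 (HO-TASTPM of 2 months), 0 to 2 (HO-TASTPM of 4 months), 2 to 3 and 4 to 5 (HET-TASTPM of 8 and 18 months), 0 to 1 (tau of 4 months), 3 to 4 (HO-TASTPM against HET-TASTPM of 18 months), 0 to 1 (HO-TASTPM against tau of 18 months), 0 to 3 (wild-type with age), 5 to 6 (HO-TASTPM interaction) and 0 to 10 (relative to the microglial list). No paired analysis was possible because the labels give the mice no replicate numbers shared between groups.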
